A study of Citrus sinensis with 6 samples.

Results

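The genes described here are those that the annotation of the sweet orange (Citrus sinensis) genome places under the cellular response to starvation, the changes a cell makes when a nutrient runs short. The members were taken from the deposited table by their Gene Ontology (GO) process terms. Of the 135 genes carrying the term, 13 were left out because they also carried sulfate transport or transition metal ion transport, or belonged to the sulfur or nitrogen metabolism pathways of KEGG (a pathway database). This left 122 members of 29875 genes. The rule uses no measured value, but it was set with earlier results of these data known.

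Leaf RNA of tissue-cultured sweet orange plants was sequenced after 25 days on culture medium, in 3 control libraries (CK) with a boron supply of 0.25 mg/L and in 3 boron-deficient libraries (T) with 0.01 mg/L. The amounts are those of the series design and, as boric acid, of the paper's methods, whereas the treatment text attached to the libraries gives 0.01 mg/L for all 6, and the groups follow the titles. CK titles name leaf blades and T titles leaf, so that a difference in the part sampled cannot be told apart from boron supply. The replicates are called biological, but no source says whether each came from separate plants, and the p-values therefore measure the spread between these libraries.

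Boron is a micronutrient that cross-links pectin in the plant cell wall. Among starvation responses, that to phosphate is one of the best known. A plant short of phosphate makes more phosphate transporters, breaks down RNA with ribonucleases and releases phosphate from organic compounds with acid phosphatases. It also breaks down membrane phospholipids, while galactolipids and sulfolipids take their place. Shortage of carbon, nitrogen or amino acids is met by autophagy, the recycling of the cell's own material in the vacuole, which the TOR kinase holds back while nutrients are plentiful.

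The values are FPKM, fragments per kilobase of gene scaled to the sequencing depth of the library, as the authors deposited them. Reads recovered from the FPKM steps amounted to 17689263 to 24026197 in genes per library, so that 1 read in a gene of 1 kilobase was worth 0.0414 to 0.0563 FPKM. The antenna protein genes of photosynthesis, which mark mesophyll, summed to between 9884 and 20167 FPKM in each library, with 15 of 17 above 0 in every library and 2 at 0 in all. T1 and T3 stood apart from the other 4 libraries in this sum, at 9884 and 9934 FPKM, while T2 at 20167 was above the CK range of 15372 to 19642. Phloem development genes summed to 119 to 175 FPKM in CK and 247 to 313 in T without overlap (14 of 16 above 0 in every library, 2 at 0 in all), although the median log2 fold change of the list was -0.17. The higher sum was therefore not that of the typical gene of the list. In the phloem list 1 gene is also a starvation member, as is 1 in the xylem list. Xylem development genes summed to 210 to 366 and 352 to 433 FPKM (29 of 36 above 0 in every library, 3 at 0 in all), and cuticle and cytokinesis genes overlapped between the groups. The part of these shifts in the results below was not tested. In leaf tissue as a whole, fewer cells of a type and less RNA per cell cannot be told apart.

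Among the members, some genes of the phosphate starvation response were higher in the boron-deficient leaves, and most other members differed little between the groups. The members that rose were annotated to phospholipid breakdown, phosphate transport, RNA breakdown and regulation of the phosphate response, and a pair annotated to sulfur starvation fell. These calls use the criterion of the study's methods, a change of 2-fold or more together with an unadjusted p no greater than 0.05. The study applied it to DESeq results, and here it was applied to the comparison described below, so the calls are not the paper's. The words rose and fell below refer to this criterion or, where stated, to an unadjusted p under 0.05 alone. No member passed the correction for multiple testing.

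Of the 122 members, 97 reached 1 FPKM in at least 3 libraries and were tested, as were 16421 genes in all. Of the other 25, 9 were at 0 in all 6 libraries, and the highest value among the remaining 16 was 2.21 FPKM. Of the tested members, 0 reached 1 FPKM in a single group only. The tested members had a median level of 17.9 FPKM, against 12.5 FPKM over all genes tested. The groups were compared with limma on log2(FPKM + 1), a scale on which changes of low genes appear too small, and p-values were adjusted by the Benjamini-Hochberg method over all 16421 genes.

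By the criterion, 5 of the 97 tested members (5.15%) were higher in T, where the share over all genes tested was 1.27%, and 2 were lower, where that share was 1.08%. With limma, 0 members had an adjusted p under 0.05 (0.00609% of all genes tested, which is 1 gene), and the lowest adjusted p was 0.542. At an unadjusted p under 0.05, which 4.78% of all genes tested had, there were 10 members higher and 2 lower, where 2.29% and 2.49% of all genes tested were higher and lower. On the recovered reads, limma voom also gave 0 members at the adjusted threshold. In 11 members (11.3%) all 3 T values lay above all 3 CK values, which held for 4.46% of all genes tested, and in 5 members (5.15%) all lay below, against 3.71%. The median log2 fold change of the members was 0.05 and that of all genes tested was 0.02, and 53 of the 97 lay within 0.25 of 0. The typical member therefore differed little between the groups, while a few differed several-fold.

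**Figure D1:**
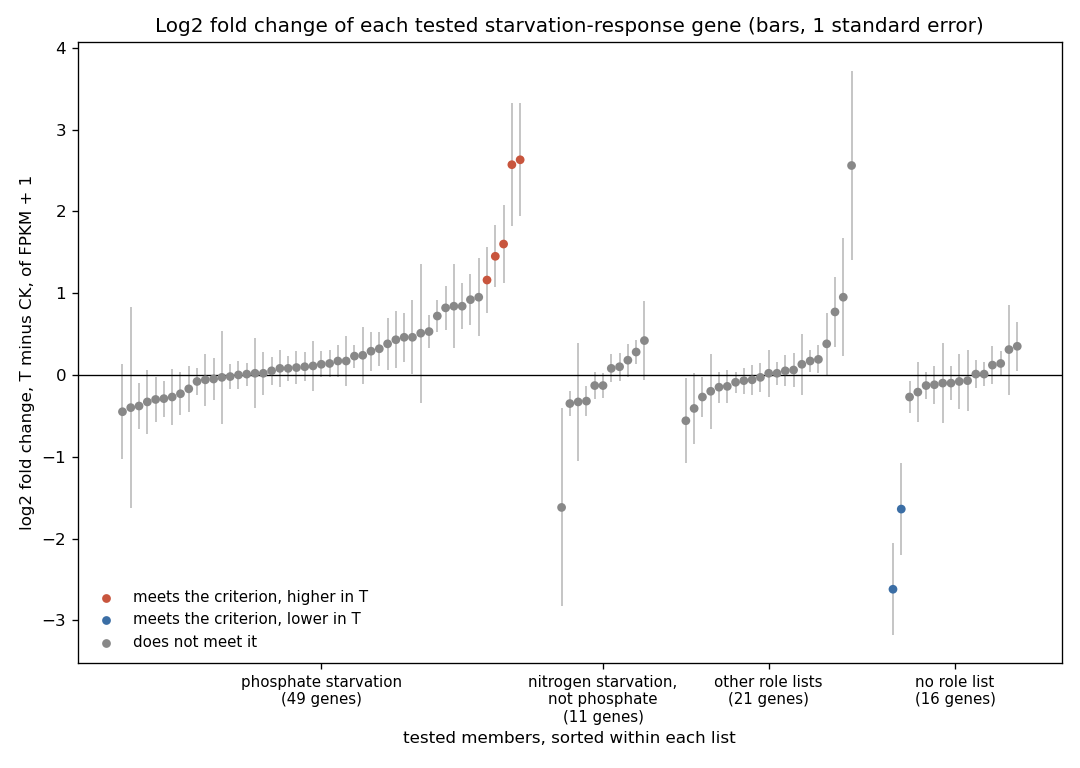
Log2 fold change (T minus CK, of FPKM + 1) of each of the 97 tested members, sorted within 4 classes, where each point is a gene and each bar 1 standard error. All 5 genes that met the criterion as higher (red) are phosphate starvation members, and both that met it as lower (blue), at -2.62 and -1.64, are in none of the role lists.

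The 5 members that met the criterion as higher all belonged to the 65 annotated to the cellular response to phosphate starvation, of which 49 were tested and 7 were at 0 in all libraries. They were 10.2% of the tested phosphate members, where the share over all genes tested was 1.27%. Of these 49, 35 had a log2 fold change above 0 and 14 below, with a median of 0.13 and an interquartile range of -0.03 to 0.51. In 10 of them (20.4%) the T values lay above all CK values, and in 0 they lay below. Of the 48 other tested members, 22 had a log2 fold change above 0 and 26 below, with a median of -0.06, and the T values lay above CK in 1 (2.08%) and below in 5 (10.4%). The lists were compared by these counts only.

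**Figure D2:**
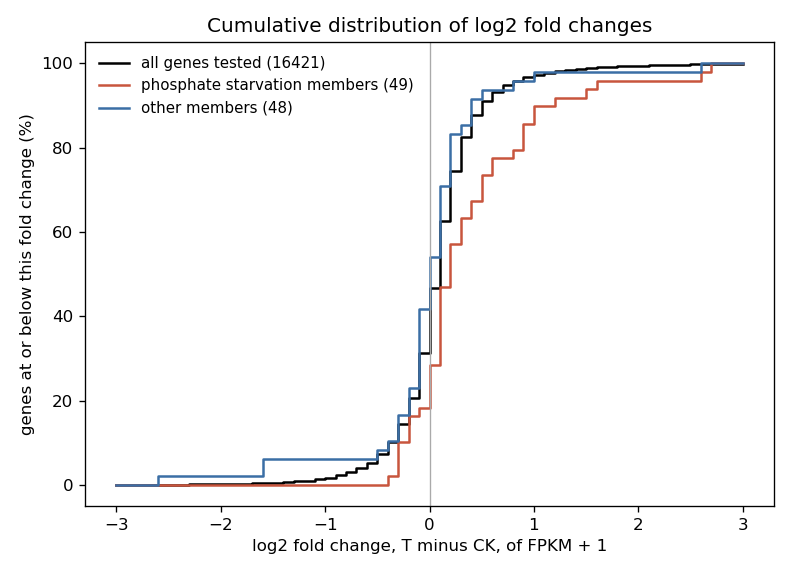
Cumulative share of genes (%) at or below each log2 fold change (T minus CK, of FPKM + 1), for all 16421 genes tested (black), the 49 phosphate starvation members (red) and the 48 other members (blue). The red curve runs to the right of the black one above 0, with medians of 0.13 and 0.02, and the blue curve lies above the black one over most of the range, at 83.33% against 74.48% at a log2 fold change of 0.2.

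Members of phospholipid breakdown were among those that rose. Cs_ont_3g014760, annotated as a phospholipase D, which cleaves the head group from membrane phospholipids, also carried galactolipid synthesis and nitrogen starvation. Its FPKM were 1.48, 1.79 and 0.996 in CK1 to CK3 and 32.5, 3.78 and 19.6 in T1 to T3. All T values were above all CK values, but T2 was much nearer to CK than T1 and T3 were. The mean was 1.42 ± 0.398 (SD, n = 3) in CK and 18.6 ± 14.4 in T, 13.1 times higher. The log2 fold change was 2.63 (SE 0.69), with an unadjusted p of 0.00745 and an adjusted p of 0.743 (limma). The exact permutation test on mean FPKM gave p = 0.1, the smallest that 3 against 3 libraries allow. Between 92 and 2211 reads lay behind each value. The other tested phospholipase D member, Cs_ont_1g020320, chosen after its values were seen, was at 14.1, 25.9 and 31.3 FPKM in CK and 19.1, 13.7 and 24.3 in T, with overlapping groups and a log2 fold change of -0.27 (SE 0.34). It did not pass the threshold, and the difference between these genes was not tested.

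Cs_ont_7g017050 was annotated as a phospholipase C and as a phosphatase of lysophosphatidic acid, enzymes that free phosphate-bearing parts of lipids. It was at 74.2, 41.3 and 67.7 FPKM in CK and at 129, 94.1 and 96.3 in T, with no overlap. The log2 fold change was 0.82 (SE 0.27), at an unadjusted p of 0.0202 and an adjusted p of 0.898 (limma), below the fold of 2 that the criterion asks, and without T1 the unadjusted p was 0.0721. Cs_ont_1g020460, annotated as a phosphatase of phosphocholine and phosphoethanolamine, the head groups of the main phospholipids, read 59.8, 41.6 and 42.5 FPKM in CK and 114, 61.0 and 89.1 in T. Its T2 value was only just above CK1, and the log2 fold change was 0.84 (SE 0.28, unadjusted p = 0.0204, adjusted p = 0.898, limma). The unadjusted p (limma) was 0.0637, 0.0574, 0.0679 and 0.053 without CK2, CK3, T1 or T3.

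The lipids that replace phospholipids were represented by glycosyltransferases. Cs_ont_6g015360 was annotated to sulfolipid biosynthesis at the chloroplast envelope and measured 19.2, 13.7 and 15.5 FPKM in CK against 47.0, 20.1 and 31.8 in T. The T values lay above CK, T2 by less than 1 FPKM, and the log2 fold change was 0.92 (SE 0.31, unadjusted p = 0.0239, adjusted p = 0.923, limma). Its mean FPKM was 2.04 times higher in T, but on the scale of FPKM + 1 the change fell short of the criterion. The unadjusted threshold was missed without CK2, CK3, T1 or T3, with a p (limma) of 0.0747, 0.0572, 0.0654 and 0.0569. Cs_ont_4g024200, a galactosyltransferase of glycerolipid metabolism named after its values were seen, was at 2.7, 4.74 and 1.9 FPKM in CK and 14, 3.82 and 5.15 in T. T2 lay inside the CK range, and the log2 fold change of 0.95 (SE 0.48) did not pass the threshold (unadjusted p = 0.0912, limma). Cs_ont_6g018440, annotated to galactolipid synthesis, held 16.8 to 18.6 FPKM in CK and 17.4 to 18.7 in T, with a log2 fold change of 0.01 (SE 0.14). Over the 6 tested members in the glycerolipid or glycerophospholipid pathways of KEGG, 5 had a log2 fold change above 0, 3 had T values above all CK values and the median was 0.87. Such separate values were found in 4.46% of all genes tested.

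Among the transporters, Cs_ont_9g008120, annotated as a phosphate transporter of the plasma membrane, had 51.8, 25.3 and 48.9 FPKM in CK and 155, 72.3 and 121 in T. Every T library was above every CK library. The means were 42.0 ± 14.6 and 116 ± 41.8 (SD, n = 3), 2.77 times higher in T, with a log2 fold change of 1.45 (SE 0.38). The unadjusted p was 0.00771 and the adjusted p 0.743 (limma). The other member with this annotation, Cs_ont_9g009100, did not pass the filter, with values of 0.0406 to 0.463 FPKM in CK and 0.0585 to 0.355 in T. Of the 7 members annotated to phosphate transport or homeostasis, 4 were tested. All 4 had a log2 fold change above 0, with a median of 0.42, and 1 met the criterion as higher (1.27% of all genes tested). The second smallest p of this list belonged to Cs_ont_7g019780, a response regulator of phosphorelay signalling, at 56.0 to 95.0 FPKM in CK and 68.0 to 141 in T. These ranges overlapped, and its log2 fold change was 0.38 (SE 0.32).

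Enzymes annotated to break down RNA or phosphate esters were also higher, a ribonuclease by the criterion and the acid phosphatases below its fold. Cs_ont_7g026520, annotated as a ribonuclease located at the cell wall, was at 4.75, 1.77 and 7.67 FPKM in CK and 19.5, 8.83 and 18.1 in T. The groups did not overlap, though T2 was close to CK3. The means were 4.73 ± 2.95 and 15.4 ± 5.77 (SD, n = 3), 3.27 times higher in T, and the log2 fold change was 1.6 (SE 0.48, unadjusted p = 0.0142, adjusted p = 0.834, limma). Without T1 the unadjusted p (limma) was 0.0508 at a log2 fold change of 1.41, just above the threshold.

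The 4 members with acid phosphatase activity all read higher in T than in CK without overlap, including the 1 that was too low to be tested. Of all genes tested, 4.46% had T values above all CK values. The adjacent genes Cs_ont_8g020690 and Cs_ont_8g020700 have the same length of 1407 bases, so that reads could have been divided between near copies, and the latter was named after its values were seen. Cs_ont_8g020690 measured 22.9, 25.2 and 26.7 FPKM in CK and 53.3, 37.3 and 36.2 in T, which gave a log2 fold change of 0.72 (SE 0.19, unadjusted p = 0.00825, adjusted p = 0.743, limma). Cs_ont_8g020700 measured 9.71, 9.97 and 11.1 FPKM in CK and 17.6, 17.2 and 11.8 in T, which gave a log2 fold change of 0.53 (SE 0.20, unadjusted p = 0.0328, adjusted p = 0.969, limma), and missed the unadjusted threshold without CK1 (0.085), CK2 (0.0785), T1 (0.116) or T2 (0.0992). In the first gene T1 was highest and the other T libraries alike, whereas in the second T3 was nearly at the CK level. Cs_ont_7g017050, given above, was the remaining tested gene. The untested Cs_ont_3g002950, also named after its values were seen, was at 0.198 to 0.419 FPKM in CK and 0.515 to 0.806 in T. The 3 tested genes had a median log2 fold change of 0.72, and none reached the fold of the criterion. Outside the members, 18 of 23 acid phosphatase genes were tested, with a median of 0.16. By the criterion 1 was higher and 0 lower, where the shares over all genes tested were 1.27% and 1.08%. At an unadjusted p under 0.05 (2.29% of all genes tested higher and 2.49% lower), 1 was higher and 1 lower. The latter was Cs_ont_3g017310, with a mean of 106 FPKM in CK and 69.7 in T (unadjusted p = 0.0135, limma).

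Both members annotated to positive regulation of the phosphate starvation response met the criterion as higher, as 1.27% of all genes tested did. Cs_ont_5g001320, located by its annotation to the endoplasmic reticulum, was at 3.75, 4.44 and 27.7 FPKM in CK and 98.1, 38.8 and 38.4 in T. CK3 was several times above the other CK libraries and still below all T libraries. The means were 11.9 ± 13.6 and 58.4 ± 34.4 (SD, n = 3), 4.89 times higher in T, with a log2 fold change of 2.57 (SE 0.75, unadjusted p = 0.0122, adjusted p = 0.813, limma). Cs_ont_4g006130, which also carried a cold response term, measured 32.4, 28.5 and 50.2 FPKM in CK and 120, 45.7 and 98.4 in T. Here the groups overlapped, since T2 was below CK3, and the exact permutation p was 0.2. The log2 fold change was 1.16 (SE 0.40, unadjusted p = 0.0248, adjusted p = 0.926, limma), and the call was lost without CK1, CK2, T1 or T3, when p was 0.0688, 0.0799, 0.081 and 0.072.

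**Figure D3:**
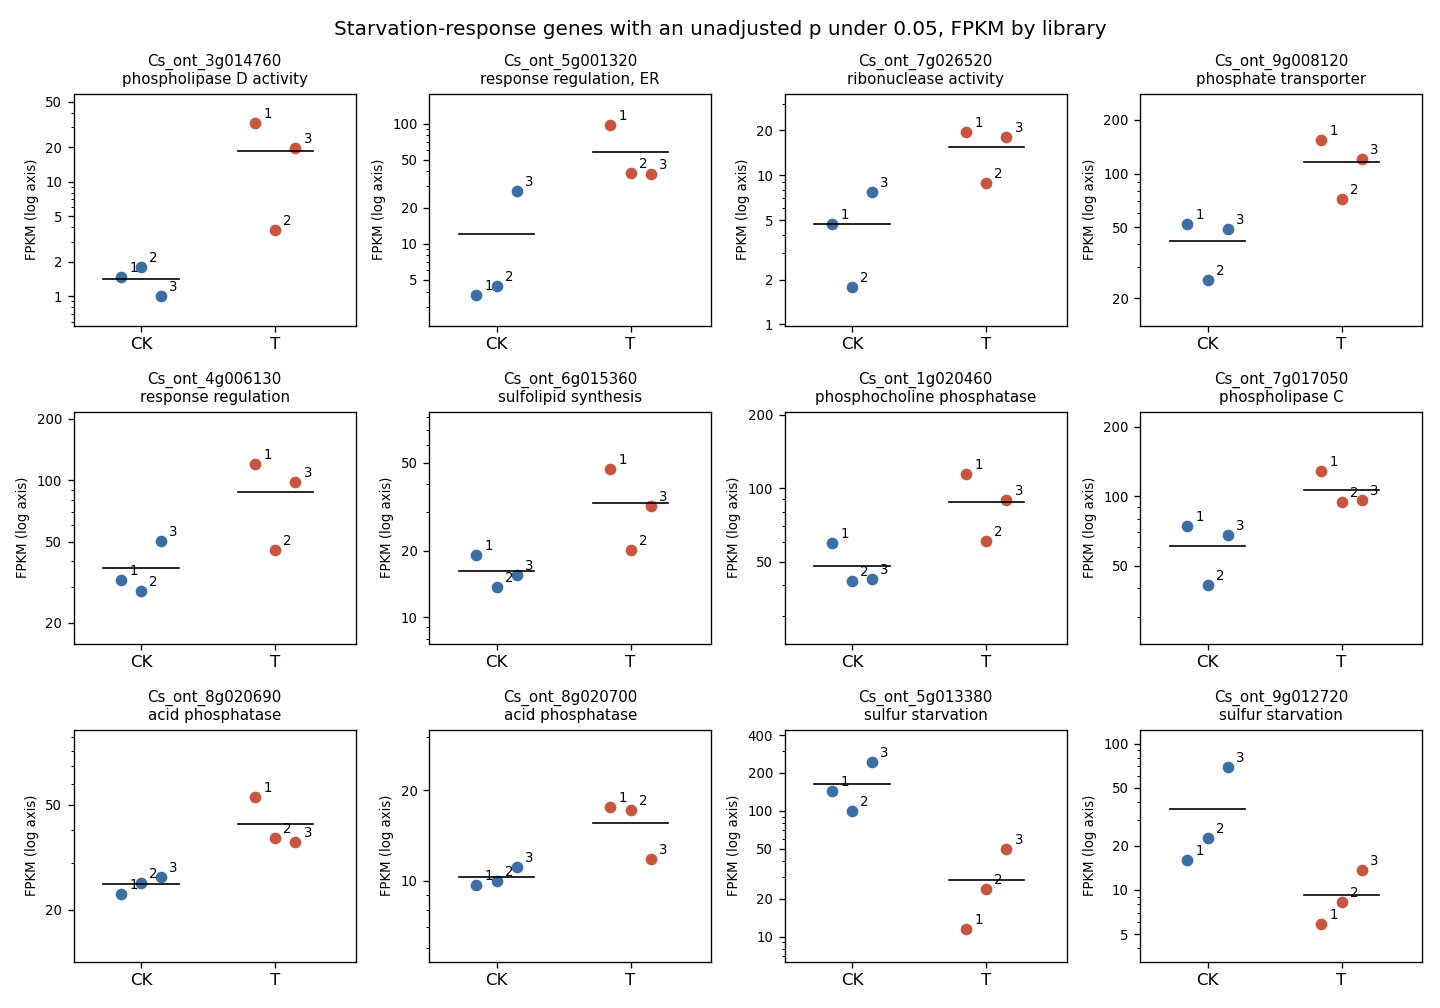
FPKM (log axis) of the 12 members with an unadjusted p under 0.05 in each library, where points are libraries with their replicate number and lines are group means. In the 10 phosphate starvation members T1 is the highest library, and in the last 2 panels, annotated to sulfur starvation, all T points lie below all CK points.

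The size of the rise differed between the T libraries in a repeated order. Of the 10 phosphate members with an unadjusted p under 0.05, T1 was the highest of the T libraries in 10, T2 the lowest in 7 and T3 the lowest in 3. The order was not counted over all genes with such a p, so no share stands beside these counts. Of the 10 phosphate members whose T values lay above all CK values, T1 was highest in 9 (90%) and T2 lowest in 6 (60%). Over the 733 genes of the whole table with such values, T1 was highest in 44.6% and T2 lowest in 33%. T1, with T3, was also the library low in antenna protein RNA and T2 the library with the highest sum of it. Leaving out T1 took the members that met the criterion as higher from 5 to 3, with 0.737% of all genes tested then called, and leaving out T2 took them to 10, with 1.67% called. Of these, 3 and 8 were phosphate members.

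**Figure D4:**
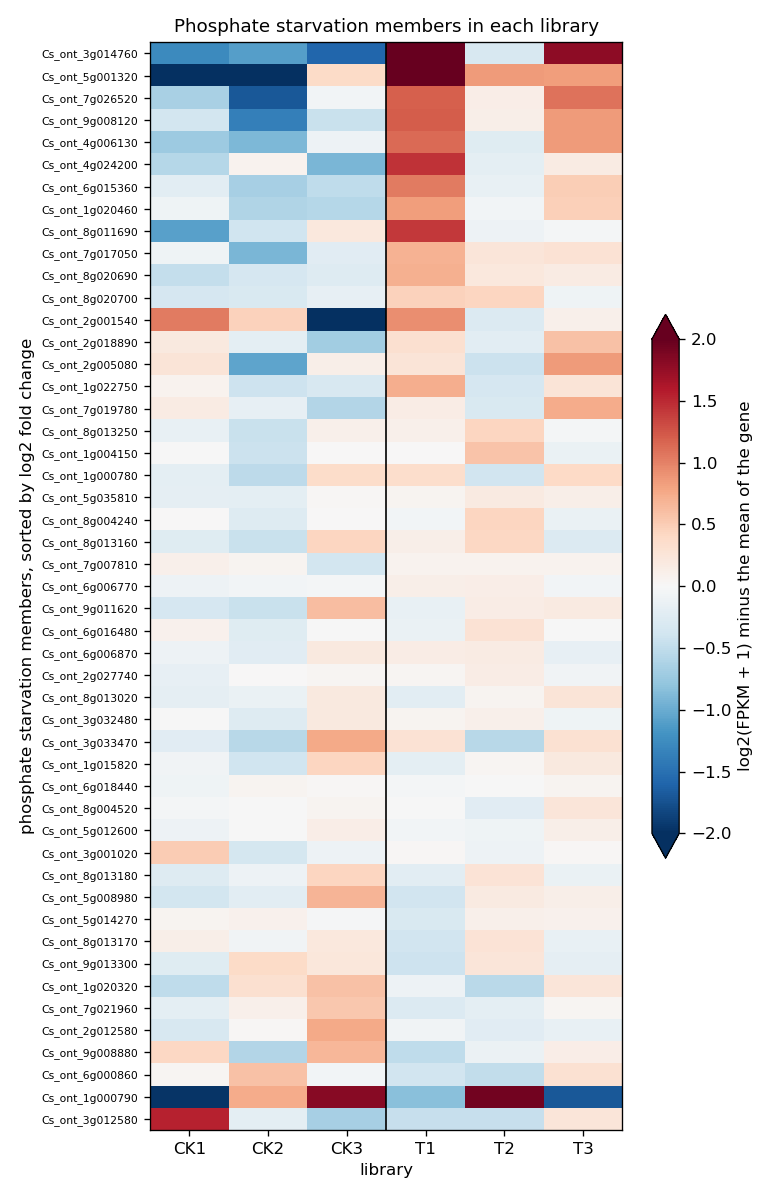
Log2(FPKM + 1) minus the mean of the gene, in each library (columns, CK left and T right of the line), for the 49 tested phosphate starvation members sorted by log2 fold change, with colours capped at 2 and -2. The upper rows are low in CK and high in T, most strongly in T1 and least in T2, and rows lower down show no common difference between the groups.

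Most of the 49 tested phosphate members did not pass the unadjusted threshold, among them those of primary metabolism. The 11 tested members of pyrimidine metabolism, the pathway that makes and salvages uracil nucleotides, had log2 fold changes from -0.17 to 0.32 with a median of 0.10. Of these 0 met the criterion, where 1.27% of all genes tested were higher and 1.08% lower. The phosphate member with the highest level next to catalase was Cs_ont_1g022750, phosphoenolpyruvate carboxykinase, at 489, 350 and 373 FPKM in CK and 768, 369 and 555 in T. T2 lay within the CK range, and the log2 fold change was 0.43 (SE 0.35). Cs_ont_5g035810, phosphoenolpyruvate carboxylase, which was named after its values were seen, was at 36.0 to 42.2 FPKM in CK and 43.0 to 47.0 in T, so that a difference of 0.23 on the log2 scale (SE 0.14, unadjusted p = 0.152, limma) came without overlap. Cs_ont_3g001020, a catalase that removes hydrogen peroxide and that carried phosphate, nitrogen and sulfate starvation, was the most abundant member at 2438 to 4440 FPKM in CK and 2928 to 3193 in T, with a log2 fold change of -0.03 (SE 0.57). Of the 7 auxin receptor members 4 were at 0 in all libraries, and the 3 tested had log2 fold changes from -0.33 to 0.02.

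The pair of members annotated to bind transcription regulatory regions that also carried a response to boron-containing substances, Cs_ont_2g018890 and Cs_ont_2g001540, overlapped between the groups and were named after their values were seen. The former was at 51.1, 38.6 and 27.1 FPKM in CK and 55.8, 38.4 and 67.3 in T, which gave a log2 fold change of 0.46 (SE 0.30). The latter was at 108, 72.0 and 10.1 FPKM in CK and 99.9, 42.9 and 56.2 in T, which gave a log2 fold change of 0.51 (SE 0.85), in which CK3 was far below the other libraries. Outside the members, the 1 tested gene annotated to borate transport, Cs_ont_3g007940, which also carries the boron-containing substance term, was at 2.34, 2.97 and 3.92 FPKM in CK and 24.9, 5.41 and 16.9 in T, with T2 again the lowest T library. Its log2 fold change was 1.84 (SE 0.51), with an adjusted p of 0.783 (limma).

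The pair annotated to sulfur starvation had the largest falls among the members. Sulfate transport genes and genes of sulfur metabolism had been left out by the choice of members, whereas these genes carried none of those terms. Cs_ont_5g013380, annotated also to the regulation of sulfur metabolism and located to a transcription repressor complex, was at 145, 100 and 244 FPKM in CK and 11.4, 24.1 and 49.3 in T. The groups were well apart, CK3 and T3 being the highest of each. The means were 163 ± 73.5 and 28.3 ± 19.3 (SD, n = 3), 5.76 times lower in T, with a log2 fold change of -2.62 (SE 0.56). The unadjusted p was 0.00267 and the adjusted p 0.542 (limma). Cs_ont_9g012720 was at 15.9, 22.5 and 68.7 FPKM in CK and 5.84, 8.23 and 13.6 in T, and here too CK3 and T3 were the highest of each group. It was 3.87 times lower in mean FPKM, with a log2 fold change of -1.64 (SE 0.56, unadjusted p = 0.0239, adjusted p = 0.923, limma), and lost the call without T1 (unadjusted p = 0.0775, limma) and without T2 (0.0554). In this pair T1 was the lowest library, so that T1 lay farthest from CK here as in the phosphate members. Over the 609 genes of the whole table with all T values below all CK values, T1 was the lowest T library in 46.8%. The 2 members annotated to sulfate starvation had log2 fold changes of -0.41 and -0.03 and overlapping groups. The former, Cs_ont_5g050270, annotated as methionine gamma-lyase, an enzyme of methionine breakdown, ranged from 32.7 to 109 FPKM in CK and from 49.0 to 52.5 in T.

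The nitrogen starvation members were divided in direction. Of 15 genes 14 were tested, 6 with a log2 fold change above 0 and 8 below and a median of -0.08. The 1 that met the criterion as higher (1.27% of all genes tested) was the phospholipase D described above. Cs_ont_4g000530, a protein kinase, was at 30.0, 30.1 and 30.9 FPKM in CK and 23.0, 20.9 and 27.5 in T, with all T values lower and a log2 fold change of -0.35 (SE 0.15, unadjusted p = 0.0615, adjusted p = 0.999, limma). Cs_ont_9g000450, a gene of the autophagy pathway named after its values were seen, was at 5.32, 5.38 and 5.44 FPKM in CK and 4.6, 4.21 and 3.62 in T, again without overlap, with a log2 fold change of -0.32 (SE 0.18, unadjusted p = 0.12, limma). In both genes the CK libraries were very close to each other. Cs_ont_2g005280, annotated as allantoinase, which releases nitrogen from purine breakdown products, varied most of all tested members (coefficient of variation 164%), at 2.19, 6.98 and 57.4 FPKM in CK and 0.591, 1.59 and 11.5 in T. CK3 and T3 exceeded the other libraries of their groups by far, and the log2 fold change of -1.62 (SE 1.21, unadjusted p = 0.225, limma) did not pass the threshold and was -0.44 without CK3.

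Members of autophagy and of TOR signalling were at nearly the same level in both groups. The 4 autophagy members had a median log2 fold change of 0.09 and 0 met the criterion. Cs_ont_2g003840 and Cs_ont_2g015470, annotated as activating enzymes for the ubiquitin-like proteins of autophagy, had log2 fold changes of -0.13 (SE 0.15) and 0.18 (SE 0.20). Their values overlapped between the groups, from 14.7 to 17.3 FPKM in CK and 14.0 to 16.1 in T for the former and from 3.33 to 4.37 and 3.83 to 4.79 for the latter. The 4 TOR signalling members had log2 fold changes of 0.02 to 0.19, and for Cs_ont_9g021430, annotated as part of the TOR complexes, the values were 13.7 to 19.3 FPKM in CK and 17.9 to 19.3 in T. Cs_ont_3g030830, a glutamine-tRNA ligase on the amino acid starvation and TOR lists, was the single member outside the phosphate list with T values above all CK values, at 35.7 to 41.9 against 42.7 to 47.9 FPKM and a log2 fold change of 0.17 (SE 0.14, unadjusted p = 0.284, limma). Outside the members, 35 of 41 autophagy genes were tested and 0 met the criterion in either direction (median -0.03). The same held for 0 of the 23 genes of the KEGG autophagy or mTOR pathways (median -0.06), of which 4 had a log2 fold change above 0 and 19 below. Over all genes tested 1.27% were higher and 1.08% lower, from which lists this small cannot be told apart. At an unadjusted p under 0.05 there were 0 in both of these lists with limma (4.78% of all genes tested). In 3 of the 35 autophagy genes (8.57%) all T values lay above all CK values, against 4.46% of all genes tested, and in 0 all lay below, against 3.71%.

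The remaining lists were small. The 7 tested sugar starvation members had a median log2 fold change of -0.03. They included Cs_ont_8g000470, an asparagine synthase, at 255, 405 and 223 FPKM in CK and 280, 87.6 and 289 in T, where T2 alone was low and the log2 fold change was -0.56 (SE 0.52). They also included Cs_ont_2g035610, a gene of branched-chain amino acid breakdown, at 15.8 to 16.5 FPKM in CK and 14.7 to 15.4 in T, which gave a log2 fold change of -0.09 (SE 0.13) without overlap. The second amino acid starvation member by p, Cs_ont_9g005030, had a log2 fold change of -0.15 (SE 0.19). Of the 4 tested potassium starvation members 0 met the criterion (1.27% of all genes tested higher and 1.08% lower). Their log2 fold changes ran from -0.27 (SE 0.24, Cs_ont_5g044250) to 0.77 (SE 0.43, Cs_ont_4g010400, at most 3.83 FPKM).

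The iron starvation members varied widely between libraries. Cs_ont_9g015330, annotated to bind DNA at regulatory regions, was at 0.389, 3.16 and 14.0 FPKM in CK and 22.5, 6.54 and 99.5 in T. It ranged widely in both groups and T2 lay below CK3, so that a log2 fold change of 2.56 came with an SE of 1.16 (unadjusted p = 0.0652, adjusted p = 0.999, limma). It met the criterion without CK3 (unadjusted p = 0.0249, limma), without T2 (0.021) and with array weights (0.015), which weigh T1 most. Its log2 fold change ran from 1.59 to 3.46 when single libraries were left out. Cs_ont_5g036430, annotated as iron-binding and as a ubiquitin ligase, was at 5.94, 14.9 and 19.5 FPKM in CK and 24.9, 8.84 and 62.9 in T, with a log2 fold change of 0.95 (SE 0.72). The latter met the criterion without T2, at a log2 fold change of 1.63 (unadjusted p = 0.0333, limma). T3 was the highest library in both genes. The other tested member had a log2 fold change of -0.20.

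The remaining members among the 5 most abundant overlapped between the groups. Cs_ont_2g010600, the magnesium starvation member, annotated to bind phosphoinositides and calcium, was at 151, 103 and 101 FPKM in CK and 159, 90.5 and 242 in T, with a log2 fold change of 0.38 (SE 0.38). Cs_ont_5g007090, a protein heterodimerization gene, was at 249, 231 and 70.9 FPKM in CK and 144, 135 and 168 in T, which gave a log2 fold change of -0.10 (SE 0.49), in which CK3 was the lowest library.

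Of the variance of log2(FPKM + 1) among the 6 libraries, 36.3% lay between the groups for the tested members, against 22.6% for all genes tested. The share was 39.1% for the phosphate starvation members and 33.4% for the other members. These shares pool the squares over genes, so that a few genes with large differences weigh most. Among the other members these were Cs_ont_5g013380 (log2 fold change -2.62), Cs_ont_9g015330 (2.56), Cs_ont_9g012720 (-1.64) and Cs_ont_2g005280 (-1.62), while the median was -0.06. In Cs_ont_9g015330 and Cs_ont_2g005280 the groups overlapped. Outside the members, 25 of 26 genes annotated to the wider response to starvation were tested, 2 of them higher and 2 lower by the criterion (median -0.03). Of 27 tested genes of the cellular response to nutrient levels, 3 were higher and 2 lower (median 0.06). The shares over all genes tested were 1.27% higher and 1.08% lower. The genes called in the starvation list were all called in the nutrient list too, which added only the borate transporter Cs_ont_3g007940. Among the shared genes was Cs_ont_3g010460 (log2 fold change -1.75), a sulfate transporter, a function that the choice of members left out. Of the 13 genes of the members' own term left out by that choice, 12 were tested, with 2 higher and 2 lower by the criterion. Their log2 fold changes ran from -1.75 to 1.24, as did those of the wider starvation list, so the calls there may be those of left-out genes. The calls in the starvation and nutrient lists went in both directions, and those in the phosphate list in one.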

How the data were processed

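The authors deposited FPKM per gene and library, made after trimming (fastp), alignment (HISAT2) and counting per gene (HTSeq). The paper names a release of the sweet orange genome without saying that the reads were aligned to it, and the versions of the tools and the strand setting are not stated, so overlapping genes and near copies cannot be told apart. The deposited group averages and the authors' DESeq fold changes, p-values and calls were not used. Genes with at least 1 FPKM in at least 3 libraries (16421) were tested, two-sided, with limma 3.58.1 (lmFit, eBayes with trend, R 4.3.3) on log2(FPKM + 1), with p-values adjusted by Benjamini-Hochberg (residual degrees of freedom, 4). The script was tested on simulated data. Reads were recovered from the FPKM steps, with whole gene lengths (tolerance 0.001 base) for 98.16% of the 22740 genes above 0. Tables and figures used Python 3.11.15, numpy 2.4.6, pandas 2.3.3 and matplotlib 3.10.9.

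Members, lists and rules were chosen with earlier results of these data known. Named with values were the members that met the criterion, the 10 largest fold changes without overlap, the 5 highest means, the 2 smallest p-values of each role list and the 3 most variable members. Further genes are marked as named after their values were seen. Some lists within the members were set only after the annotations of the members were seen. These were acid phosphatases, the glycerolipid pathways, pyrimidine metabolism, auxin receptors, positive regulation of the phosphate response, sulfur starvation and the response to boron-containing substances. Functions are GO or KEGG annotations of the table. None of the 122 identifiers (0) was found in the RefSeq gene table, so no sequence or coordinate is given. The exact permutation test was two-sided. Alternatives were the pseudocount, the filter, the scaling, a replicate block, array weights, voom and leaving out each library.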

Additional observations from a re-analysis of the deposited data

How the results depend on the processing

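No member had an adjusted p under 0.05 under any alternative (0 in each, leaving out single libraries included). The number of members higher in T by the criterion was 5 (1.27% of all genes tested), and it was 11 with array weights (3.45%). It was 3 to 10 when single libraries were left out, lowest without T1 (0.737% of all genes tested) and highest without T2 (1.67%). In these settings the share over all genes tested ran from 0.737% to 2.42%. The array weight was 6.295 for T1 and 0.4789 to 0.9583 for the other libraries, so that the T group in this setting rests mostly on T1. The number lower was 2 (1.08% of all genes tested), and 1 to 2 when single libraries were left out, 1 without T1 (0.731%) and 1 without T2 (1.41%). In these settings the share lower over all genes tested ran from 0.731% to 2.41%, from which such small counts cannot be told apart. The median log2 fold change of the members was 0.05, and 0.02 to 0.16 without single libraries, with the highest without CK3, where that of all genes was 0.08. The pseudocounts of 0.1 and 0.01, the filters, the size factors, quantile normalization and voom gave 4 or 5 members higher and 2 lower (0.941% to 1.5% and 0.787% to 1.29% of all genes tested), with 4 under the filter at 5 FPKM, which leaves Cs_ont_3g014760 untested. After centring each group, samples with the same number correlated at 0.28, 0.21 and -0.04, and samples with different numbers at -0.40 to 0.23. With so few libraries this does not settle whether the numbers pair them, and no source says so. A replicate block gave 6 higher and 3 lower (1.64% and 1.22% of all genes tested) with 0 at the adjusted threshold. Under the block, Cs_ont_2g005280 (unadjusted p = 0.00405, limma) and Cs_ont_9g015330 (0.0141) met the criterion and Cs_ont_8g020700 had an unadjusted p of 0.0605. Some fold changes near 0 changed sign, and the -0.56 of Cs_ont_8g000470 fell to 0.00. Cs_ont_6g018440 was at -0.01 with quantile normalization, -0.02 with array weights and -0.03 to 0.04 without single libraries (-0.03 without CK1, -0.02 without T3). Without single libraries, Cs_ont_3g001020 ran from -0.22 to 0.21 (0.21 without CK1, 0.01 without T2), Cs_ont_5g007090 from -0.68 to 0.21 (0.21 without CK1, 0.16 without CK2) and Cs_ont_8g000470 from -0.85 to 0.00 (0.00 without T2). The causes were not tested. Between 13 and 259068 reads per library lay behind the named members that were tested, and depth limits the lowest of them.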
